A study of Mus musculus with 27 samples.

Results

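Mouse embryonic stem cells were followed for a day after a short exposure to hydrogen peroxide, and the question taken up here is how near their mRNA levels came to the starting point. The libraries compared are 6 of the 27 in the series: the 3 libraries of treated cells at 24 h and the 3 libraries of untreated cells at 0 h. They were chosen by their labels, not by any measured value. All cells were wild-type E14Tg2a, an established line of pluripotent cells from the early mouse embryo, grown on gelatin with serum, LIF and the 2i inhibitors. Treated cells received 500 µM H2O2 for 30 min, after which their medium was exchanged for spent medium of untreated cells, and they were collected at 24 h. For the untreated 0 h cells the labels give neither exposure nor exchange of medium. Untreated cells collected at 24 h and treated cells collected at 6 h, 3 libraries each, are given beside the comparison. The treatment, the exchange of medium and the day in culture cannot be told apart in a comparison of treated 24 h with untreated 0 h cells. The replicates are biological replicates per the series description.

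Stem cells grown in 2i and LIF keep a naive pluripotent state, held by a network of transcription factors in which Pou5f1, Sox2 and Nanog are central. Peroxide damages DNA and oxidises proteins. Damaged DNA activates the transcription factor p53, which induces genes of cell cycle arrest, repair and cell death, and in stem cells it is also known to lower Nanog. Oxidised KEAP1 releases NRF2, which induces antioxidant enzymes through antioxidant response elements, and TFEB and TFE3 drive lysosomal genes under stress. A small share of stem cells passes at times through a state that resembles the embryo at its first cleavage and is marked by Zscan4 transcripts.

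Expression was deposited as FPKM, which counts fragments relative to transcript length and to the size of the library. Differences are means of log2(FPKM + 1), a scale that understates changes of weakly expressed genes, and each is treated 24 h minus untreated 0 h unless stated. Genes with at least 1 FPKM in 3 or more of the 6 libraries numbered 12315 of 38352 and were tested with limma, with the spread between replicates estimated over all 27 libraries. A gene is called changed at an adjusted p below 0.05 (Benjamini-Hochberg). Steps in the low FPKM values gave the 6 libraries relative depths between 1.00 and 1.10, with the first untreated 0 h library at 1.00. Absolute depth is unknown. Untreated 0 h replicate 3 stood apart from its group. Its summed FPKM was 395760 against 307208 to 313592 in the other 5 libraries, its ribosomal protein mRNAs lay 0.90 higher, and its levels rose by 0.38 per 10 points of transcript GC content, both against the mean of replicates 1 and 2. Lead results are therefore given with and without it. A gene whose 3 libraries in 1 group are all under 1 FPKM passed the filter through the other group alone, which favours a difference in that direction. There were 112 such genes with low untreated libraries, 78 of them called higher, and 18 with low treated libraries, 8 of them called lower. All 7 embryonic stem cell markers were at 1 FPKM or more in every group, with sums of 1867 to 2006 FPKM in untreated 0 h and 1819 to 1862 FPKM in treated 24 h cells. Of 32 hepatocyte markers only Trf reached 1 FPKM at treated 24 h (sums of 5.17 to 5.67 FPKM, with 9 markers such as Apoc3, Cyp2e1 and Mup3 at 0), against 4.37, 4.51 and 12.3 FPKM in untreated 0 h cells and 63.9 to 86.7 FPKM in untreated 24 h cells. Of 9 astrocyte markers 5 reached 1 FPKM at treated 24 h, Lcn2 and Gfap among them, and 2 at untreated 0 h (sums of 16.0 to 22.4 against 9.27 to 13.1 FPKM). The part of these transcripts in the results was not tested.

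At 24 h the treated cells lay much nearer to the starting cells than at 6 h, but not at the starting level for every gene. In limma, 1358 of 12315 genes were changed (11.0%), with 1064 higher (8.64%) and 294 lower (2.39%). At 6 h the same untreated libraries gave 5173 changed genes (42.0%), 2529 higher (20.5%) and 2644 lower (21.5%). Treated cells at 24 h set directly against 6 h gave 4893 (39.7%), 3058 higher (24.8%) and 1835 lower (14.9%). Differences at 24 h were mostly small: their median size was 0.22 and 95% of genes lay below 0.61, against 0.28 and 1.02 at 6 h. Of the changed genes, 29 differed by 2-fold or more, 20 higher and 9 lower, against 643 at 6 h. For 7461 genes (60.6%) the 95% interval of the difference lay inside 1.5-fold in both directions, and without replicate 3 for 10187. In a bulk sample, fewer cells of a type and less RNA per cell cannot be told apart.

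The size of the 24 h difference depended on the third untreated library. Without it, 576 genes were changed (4.68%), 449 higher (3.65%) and 127 lower (1.03%), 9 of them by 2-fold or more and all 9 higher, and the median size of a difference was 0.11. The total count at 6 h hardly moved without it (5170 genes). Its split went from 2529 higher and 2644 lower to 2176 and 2994, and its 2-fold changes from 643 to 550. All 1358 changed genes kept their sign without replicate 3, and 506 were called both ways (4.11%), 413 higher (3.35%) and 93 lower (0.755%). The group ranges did not overlap for 1332 of the 1358, beside 36.0% of all genes tested (24.5% higher and 11.5% lower). Calls and ranges come from the same values, so the ranges are no separate support for the calls. Leaving out untreated replicate 1 or 2 gave 3036 or 2768 changed genes, and leaving out treated replicate 1, 2 or 3 gave 680, 635 or 728. When only the 6 compared libraries set the spread, limma called 0 genes (1371 at an unadjusted p under 0.05), and with replicate 3 out, the remaining 5 libraries alone called 1843, 1197 higher and 646 lower. Scaling libraries by median of ratios shifted the median of all genes from 0.10 to 0.01 and the split to 730 higher and 569 lower. Genes called higher are therefore read against a median of 0.10, or 0.03 without replicate 3.

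**Figure D1:**
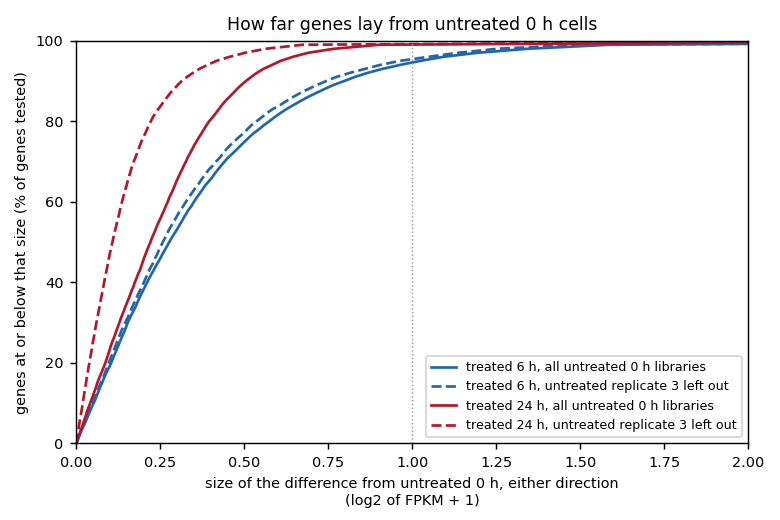
Share of the 12315 genes tested (y axis, %) whose difference from untreated 0 h is at or below the size on the x axis (log2 of FPKM + 1), for treated 6 h (blue) and treated 24 h (red), with all untreated libraries (solid) or replicate 3 left out (dashed). The 24 h curves rise earlier: the median size is 0.22 (0.11 without replicate 3) at 24 h and 0.28 (0.26) at 6 h, and the dotted line marks 2-fold.

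Genes that had moved furthest by 6 h did not all end alike. To choose them by group means that leave out the 6 compared libraries, treated 6 h cells were set against untreated 24 h cells. This choice was made after the data were seen. The spread and the filter still drew on the 6 compared libraries, so the choice is not independent of them. By that test 462 genes were at least 2-fold higher at 6 h (3.75%) and 233 at least 2-fold lower (1.89%). Of the 462, 170 were changed at 24 h against 0 h and all 170 were higher, 36.8% beside 11.0% of all genes, with a median difference of 0.36. Without replicate 3 the count was 94 higher and 0 lower, with a median of 0.23. Of the 233 genes that had been lower, 13 were higher and 14 lower at 24 h, 11.6% in all, with a median of −0.10, or −0.01 without replicate 3 (4 higher and 7 lower). With both directions pooled, the share of changed genes among the 6 h falls lay near that of all genes, and that among the 6 h rises lay above it. The pooled share hides the direction. The 13 higher and 14 lower of the 233 stand beside 8.64% higher and 2.39% lower among all genes. Without replicate 3, the 4 higher and 7 lower stand beside 3.65% and 1.03%. Hepatocyte markers were high in treated 6 h replicate 3 (sum of 68.3 FPKM, 4.86 and 6.66 in the others) and in untreated 24 h cells, and their part in this choice was not tested.

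The largest rise was that of Peg10, an imprinted gene derived from a retrotransposon and needed for the placenta (chromosome 6, 4747306 to 4760517, GRCm38). It stood at 12.1, 12.4 and 7.79 FPKM in untreated 0 h replicates 1, 2 and 3 and at 42.3, 43.3 and 37.4 FPKM in the treated 24 h libraries. All treated libraries lay about 3-fold or more above every untreated one, and the untreated 24 h libraries stood at 8.64, 11.7 and 9.79 FPKM. The difference was 1.86 (SE 0.17, adjusted p = 8.96e-07), or 1.66 without replicate 3. Peg10 had fallen at 6 h (6.36 ± 0.246 FPKM, SD, n = 3; −0.65), had a mean of 14.8 FPKM at 10 h, and reached its 24 h level after 10 h.

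S100a6, a small calcium-binding protein (chromosome 3, 90612882 to 90624181), stood at 4.10, 4.14 and 8.55 FPKM before and at 15.6, 13.7 and 15.6 FPKM at treated 24 h. The groups did not overlap although replicate 3 was the highest untreated library, and the difference was 1.34 (SE 0.20, adjusted p = 3.08e-04), or 1.64 without replicate 3. Its mean was 10.5 FPKM at 8 h, 16.3 FPKM at 10 h and 3.98 FPKM in untreated 24 h cells. Krt18, an intermediate filament keratin of simple epithelia (chromosome 15, 102028180 to 102032027), stood at 2.67, 3.88 and 2.81 FPKM and then at 9.21, 8.08 and 7.40 FPKM. Every treated library was more than 1.5-fold above the highest untreated one, and the difference was 1.17 (SE 0.16, adjusted p = 9.58e-05), or 1.12 without replicate 3. Pmaip1, which encodes the pro-apoptotic protein NOXA, stood at 7.98, 6.71 and 3.62 FPKM and then at 14.1, 13.6 and 13.1 FPKM (1.09, SE 0.17, adjusted p = 3.06e-04). Replicate 3 was its lowest library, and without it the difference was 0.81. The other large rises among genes with a mean of at least 5 FPKM were Zscan4e, Zscan4b, Zscan4d and Usp17le, described with the 2-cell-like list, the mitochondrial tRNA mt-Tm, and Rtl10, whose difference of 1.18 rested on replicate 3 (1.18 FPKM there, 6.74 and 8.07 FPKM in replicates 1 and 2; 0.53 without it, adjusted p = 0.319).

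Falls were fewer, and several of the largest did not pass the test without replicate 3. Tuba3a, an alpha-tubulin gene, had the lowest adjusted p among the 10 largest falls: 47.0, 47.7 and 62.2 FPKM before and 27.1, 28.6 and 28.4 FPKM at treated 24 h (−0.86, SE 0.09, adjusted p = 4.96e-06; −0.74 without replicate 3). The treated values lay within 1.5 FPKM of each other and below all untreated ones, including 45.1 to 46.2 FPKM in untreated 24 h cells. Its 6 h mean was 27.5 FPKM, and 24 h against 6 h gave 0.03 (adjusted p = 0.808). Smarcd3, a subunit of the BAF chromatin remodelling complex, went from 3.87, 4.75 and 7.48 FPKM to 2.50, 2.66 and 2.64 FPKM (−0.78, SE 0.16; −0.56 without replicate 3), and its 6 h mean was 2.73 FPKM. Myl9, a myosin light chain, fell by 1.19 (5.78, 4.97 and 10.0 to 2.56, 2.61 and 1.95 FPKM; −0.92 without replicate 3), and Prxl2b, a peroxiredoxin-like gene, by 0.88 (−0.67 without replicate 3). Calls were lost without replicate 3 for Rbm42, an RNA-binding protein (−1.10 with all libraries; −0.78 without, adjusted p = 0.22), and Id3, a target of BMP signals (−0.74; −0.45, adjusted p = 0.262). Calls were lost with less change in size for Haus5, a subunit of the augmin complex (−1.07; −0.94, adjusted p = 0.106), Rpl17 (−1.41; −1.23, adjusted p = 0.147) and Rps27rt (−0.81; −0.88, adjusted p = 0.051). Rpl17 and Rps27rt have close copies elsewhere in the genome, so the split of fragments between copies is uncertain. Untreated cells over the day gave −0.70 for Id3, −0.73 for Rps27rt and −0.67 for Myl9, without a call. Treated against untreated 24 h cells gave −0.04, −0.08 and −0.51 for them and did not pass (adjusted p = 0.912, 0.801 and 0.0773). Tuba3a, Haus5, Rbm42 and Prxl2b fell less in untreated cells (−0.18 to −0.42), and Smarcd3 and Rpl17 went up (0.33 and 0.40), also without a call.

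**Figure D2:**
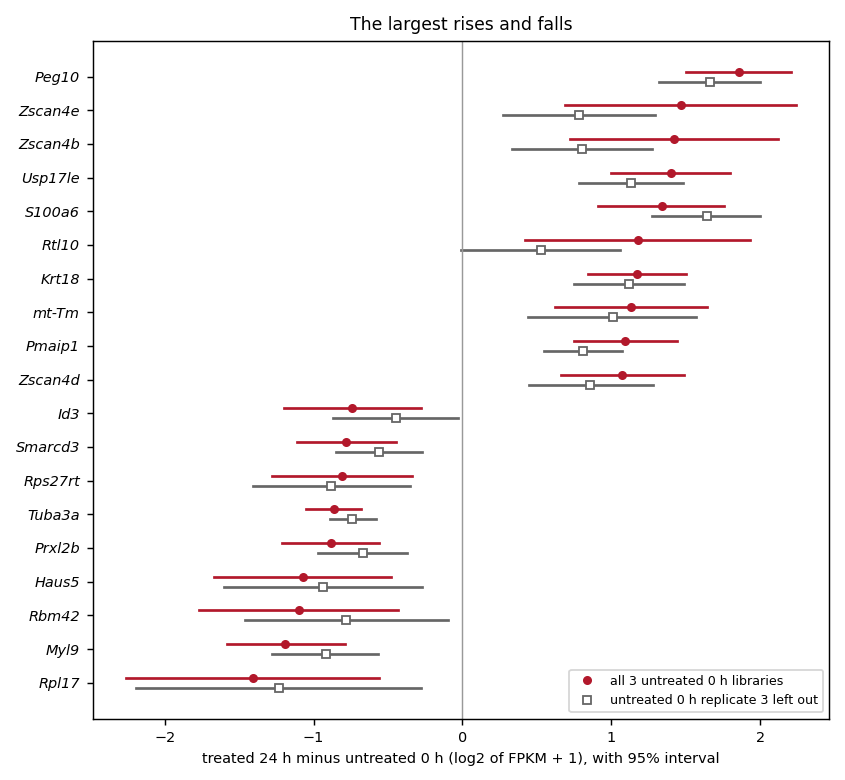
Difference between treated 24 h and untreated 0 h (x axis, log2 of FPKM + 1, with 95% interval) for the 10 largest rises and 9 of the 10 largest falls, with all 3 untreated libraries (red circles) and with replicate 3 left out (open squares). Peg10 keeps the highest value both ways (1.86 and 1.66 with all and without replicate 3), while intervals such as that of Rtl10 move towards 0 without replicate 3.

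Pluripotency genes, lowered at 6 h, lay close to the starting level. Of 14 core pluripotency genes 0 were higher and 13 lower at 6 h (median −0.84), beside 20.5% and 21.5% of all genes. At 24 h 1 was higher and 1 lower (median −0.13), beside 8.64% and 2.39% of all genes. For 11 of the 14 the interval lay inside 1.5-fold, beside 60.6% of all genes. Nanog stood at 371, 366 and 296 FPKM at 0 h and at 355, 362 and 374 FPKM at treated 24 h. The groups overlapped, and the difference was 0.09 with a 95% interval of −0.08 to 0.25 (−0.02 without replicate 3). At 6 h Nanog had been at 89.9, 89.8 and 89.7 FPKM. Pou5f1, which encodes OCT4, stood at 586, 616 and 938 FPKM and then at 610, 594 and 612 FPKM, so the treated libraries lay between untreated replicates 1 and 2 (−0.20 with all libraries, 0.01 without replicate 3). Foxd3, a repressor needed to keep pluripotency, rose from a 6 h mean of 2.69 FPKM to 14.2, 12.8 and 14.7 FPKM, against 15.0, 17.5 and 21.8 FPKM at 0 h (−0.34, adjusted p = 0.0882; −0.21 without replicate 3). All its treated 24 h values lay below all its untreated 0 h values.

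Some members stayed below the start. Gdf3, a TGF-beta family ligand, stood at 69.5, 71.9 and 83.0 FPKM and then at 54.4, 52.7 and 56.5 FPKM, a fall of 0.45 (SE 0.08, adjusted p = 0.00106; −0.37 without replicate 3). Its groups did not overlap. Sox2 gave 138, 137 and 121 FPKM against 119, 119 and 124 FPKM, a difference of −0.13 that missed the test with all libraries (adjusted p = 0.121) and passed it without replicate 3 (−0.19, adjusted p = 0.0364). Dppa2, a regulator of early embryonic genes, was higher by 0.17, a call lost without replicate 3 (0.15, adjusted p = 0.0719) or with scaled libraries (adjusted p = 0.442). The core list without replicate 3 had 0 higher and 4 of 14 lower, beside 1.03% lower among all genes, and the same counts with scaled libraries.

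Of 26 naive pluripotency genes, 3 were higher and 15 lower at 6 h (median −0.43), and 0 higher and 3 lower at 24 h (median 0.08, or −0.03 both without replicate 3 and with scaled libraries). The interval lay inside 1.5-fold for 20 of them, beside 60.6% of all genes. The 3 lower genes, beside 2.39% lower among all genes, were Nr0b1, Tcl1 and Gbx2. Nr0b1, which encodes the nuclear receptor DAX1, had risen at 6 h (mean 59.5 FPKM) and then lay below its start, at 33.0, 34.1 and 34.4 against 44.6, 47.5 and 57.7 FPKM (−0.54, SE 0.09, adjusted p = 4.47e-04; −0.43 without replicate 3). All treated 24 h values of Nr0b1 were below the lowest untreated value. Tcl1, a coactivator of AKT, was at 24.7, 21.7 and 23.6 against 29.9, 31.0 and 38.5 FPKM (−0.48; −0.37 without replicate 3). Gbx2 fell by 0.46, a call lost without replicate 3 (−0.36, adjusted p = 0.0526). Fgf4, a growth factor secreted by these cells (61.5, 61.5 and 64.0 against 58.6, 60.2 and 47.3 FPKM), and Zfp42, also known as Rex1 (389, 387 and 389 against 410, 410 and 340 FPKM), did not pass (0.17 and 0.01; 0.07 and −0.08 without replicate 3). Mycn, a MYC family factor, stood at 26.5, 27.5 and 26.4 against 33.0, 32.2 and 26.3 FPKM, from a 6 h mean of 8.36 FPKM (−0.18, adjusted p = 0.126; −0.28 and 0.025 without replicate 3).

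Targets of p53 remained raised as a group at a part of their 6 h level. Of 47 tested, 38 were higher and 1 lower at 6 h (median 0.82), and 23 were higher and 0 lower at 24 h (median 0.30, beside 8.64% higher and a median of 0.10 over all genes). Without replicate 3 there were 15 higher and 0 lower (median 0.25), and with scaled libraries 18 and 0. Tested directly, 32 of the 47 fell and 2 rose between 6 h and 24 h. Against untreated 24 h cells, which share the treated libraries, 24 were higher and 0 lower (median 0.37).

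Perp, a membrane protein of desmosomes and of p53-dependent cell death (chromosome 10, 18845020 to 18857073), showed this in every library. It stood at 21.5, 20.6 and 23.2 FPKM at 0 h, at 57.6, 58.1 and 59.0 FPKM at 6 h, and at 42.9, 44.1 and 39.6 FPKM at 24 h. The difference at 24 h was 0.92 (SE 0.06, adjusted p = 1.52e-08), and 0.97 without replicate 3. Untreated cells had meanwhile fallen to 17.5, 14.9 and 16.4 FPKM (−0.40, adjusted p = 0.00169), so against them the difference was 1.32. Polk, a translesion DNA polymerase, stood at 4.03, 3.52 and 1.38 FPKM and then at 6.18, 6.20 and 6.34 FPKM (0.94; 0.60 without replicate 3). Cdkn1a, the p21 inhibitor of cyclin-dependent kinases, stood at 26.4, 26.3 and 31.9 against 35.5, 35.3 and 37.4 FPKM, higher by 0.35 (0.44 without replicate 3), a call lost with scaled libraries (adjusted p = 0.182) and without treated replicate 1, 2 or 3 (0.0566, 0.0569 and 0.0832). Ccng1, cyclin G1, was higher by 0.51 (140, 132 and 91.0 against 173, 174 and 163 FPKM; 0.32 without replicate 3). Mdm2, the ubiquitin ligase that limits p53, came down from 140, 144 and 137 FPKM at 6 h to 48.9, 51.3 and 50 FPKM, against 40.1, 41.1 and 23.4 FPKM at 0 h. The rise of Mdm2 by 0.55 (adjusted p = 0.0363) was 0.30 without replicate 3 and did not pass (adjusted p = 0.274), nor without treated replicate 1, 2 or 3 (0.0829, 0.107 and 0.0896). Trp53inp1, an autophagy and cell death regulator, was higher by 0.93, lost without replicate 3 (0.54, adjusted p = 0.168). Gdf15, a stress cytokine, gave −0.10 (adjusted p = 0.655; 0.11 without replicate 3).

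**Figure D3:**
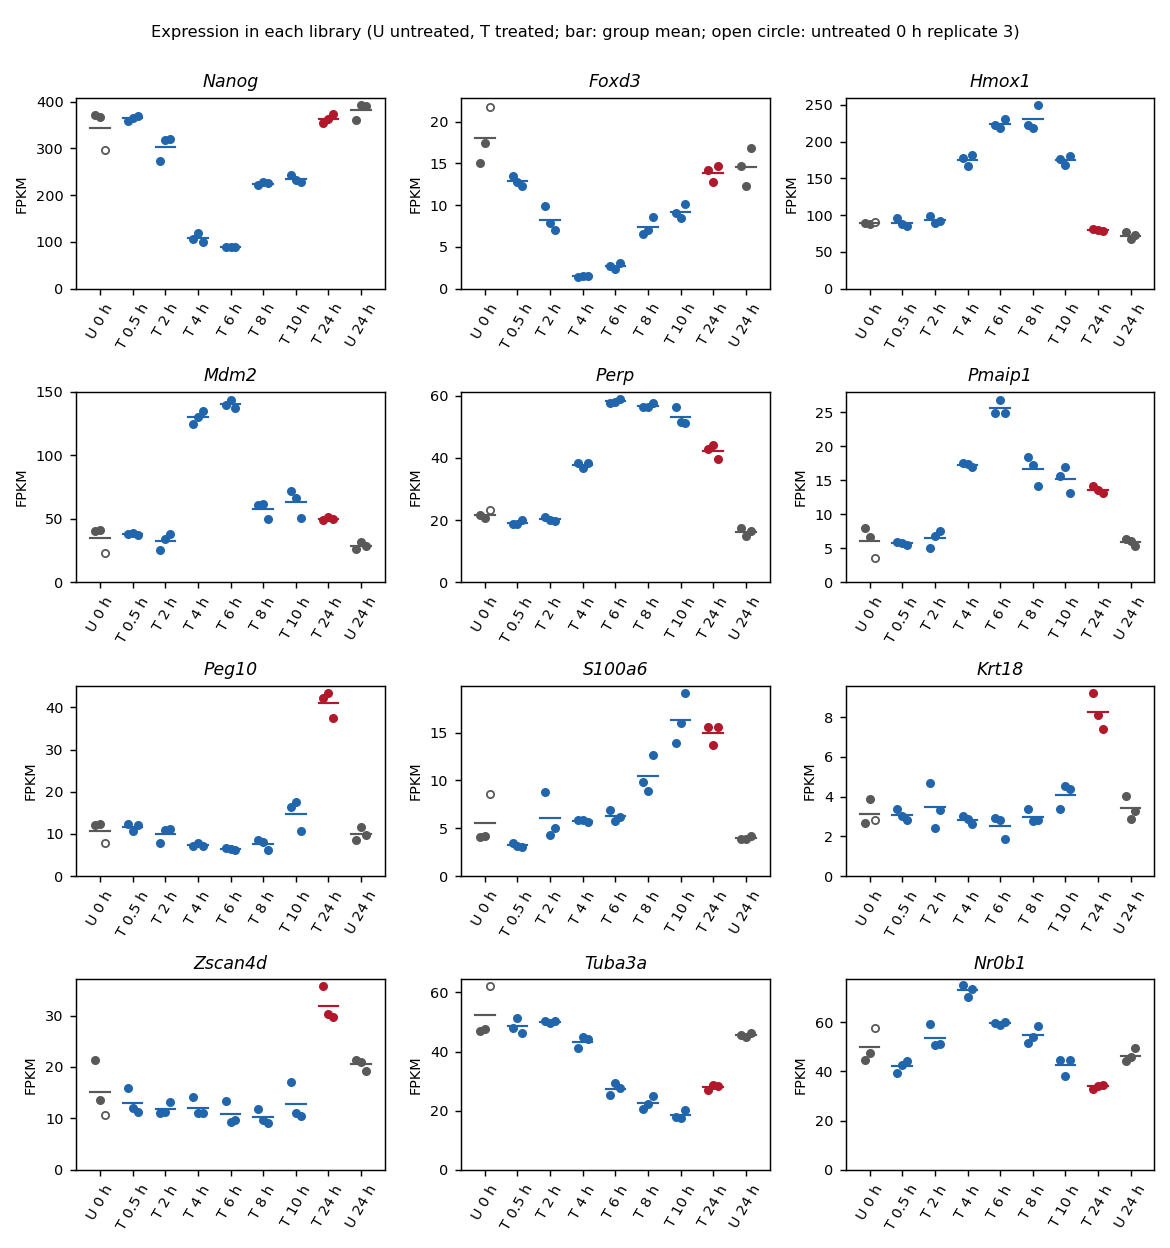
FPKM (y axis) in each of the 27 libraries for 12 genes, by group on the x axis (U untreated, T treated, time in hours); points are libraries, bars are group means, and the open circle is untreated 0 h replicate 3. Nanog and Foxd3 dip and then reach 364 and 13.9 FPKM on average at treated 24 h. All treated 24 h values of Foxd3 lie below its untreated 0 h values. Perp stays at 42.2 FPKM, and Peg10, Krt18 and Zscan4d rise between 10 h and 24 h.

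Transcripts of the 2-cell-like state were the list with the highest median. Of 17 tested, 14 were higher and 0 lower (median 0.84), against 1 higher and 3 lower at 6 h (median −0.27). Among all genes 8.64% were higher at 24 h, or 3.65% without replicate 3. Between 6 h and 24 h, 16 of the 17 rose. Without replicate 3 there were 10 higher and 0 lower (median 0.68), and with scaled libraries 14 and 0. Untreated 24 h cells had a median of 0.35 over their start with 0 of 17 called, and treated 24 h cells against them had 5 higher and 0 lower (median 0.49).

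Zscan4 genes encode zinc finger proteins active at zygotic genome activation and at telomeres, and sit in 1 cluster on chromosome 7. Zscan4d stood at 21.3, 13.6 and 10.6 FPKM at 0 h and at 35.7, 30.3 and 29.7 FPKM at treated 24 h (1.07, SE 0.20, adjusted p = 0.0018; 0.86 without replicate 3). Every treated library was above every untreated one, and the untreated 24 h libraries, at 21.3, 21.0 and 19.3 FPKM, were below all treated ones. Zscan4b stood at 18.1, 12.2 and 3.38 FPKM and then at 29.7, 25.3 and 25.0 FPKM (1.42, SE 0.34; 0.80 without replicate 3, adjusted p = 0.0454). Zscan4e gave 26.8, 17.6 and 4.45 against 41.2, 37.8 and 35.3 FPKM (1.47; 0.78 without replicate 3, adjusted p = 0.0768; 0.0574 without treated replicate 1). Zscan4f gave 36.3, 26.0 and 19.9 against 57.8, 48.7 and 46.1 FPKM (0.90; 0.70 without replicate 3, adjusted p = 0.0595). In each of these copies replicate 3 was the lowest untreated library. Usp17le, a deubiquitinase gene of another multicopy family, stood at 3.45, 2.29 and 1.17 FPKM and then at 7.59, 7.08 and 7.39 FPKM (1.40, SE 0.19, adjusted p = 9.58e-05; 1.13 without replicate 3). Outside these families, Tmem92 stood at 2.43, 2.32 and 3.28 against 5.36, 5.52 and 5.72 FPKM (0.84; 0.95 without replicate 3), and Zfp352, a retrogene of the early embryo, at 0.70, 0.623 and 0.211 against 1.69, 1.53 and 1.2 FPKM (0.72; 0.57 without replicate 3). Zfp352 passed the filter through the treated group alone. Zscan4f, Tmem92 and Zfp352 were chosen for mention after their values were seen.

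The copies are near identical in sequence, so the value of a single copy is uncertain and the 14 calls are not 14 separate measurements. The longest GENCODE transcripts of the 6 Zscan4 copies were 96.6% to 99.7% identical over their aligned bases in the 15 pairs, and those of 5 Usp17l copies 89.7% to 97.8% in 10 pairs. The RefSeq promoters of Zscan4b (chr7:10905001-10905300, minus strand) and Zscan4f (chr7:11397665-11397964, plus strand, both GRCm38.p6), from 250 bases before to 50 after the start, differ at 13 of 300 positions. This pair was picked because it lined up when promoters were compared without gaps from their annotated starts. In that comparison the other 11 promoter pairs within the 2 families were 23.3% to 29.3% identical. The promoters of Zscan4c and Zscan4d hold long stretches of the Zscan4f sequence at a shifted position. These low values therefore do not measure how far the copies differ. Zscan4b and Zscan4f are shown 5′ to 3′ with the bases that differ in capitals.
Zscan4b: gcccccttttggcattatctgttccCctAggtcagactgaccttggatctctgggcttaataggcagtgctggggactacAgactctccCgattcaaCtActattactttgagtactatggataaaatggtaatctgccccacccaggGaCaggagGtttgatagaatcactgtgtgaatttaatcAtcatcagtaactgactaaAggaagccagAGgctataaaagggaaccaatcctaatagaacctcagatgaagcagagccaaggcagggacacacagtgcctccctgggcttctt
Zscan4f: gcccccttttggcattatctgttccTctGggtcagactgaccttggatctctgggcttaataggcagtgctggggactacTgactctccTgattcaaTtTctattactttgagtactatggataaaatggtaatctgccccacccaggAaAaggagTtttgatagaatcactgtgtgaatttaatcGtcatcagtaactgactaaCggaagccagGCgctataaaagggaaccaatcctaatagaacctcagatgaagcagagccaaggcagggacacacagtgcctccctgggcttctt

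Targets of NRF2, the oxidant sensor pathway, were called in both directions, with all libraries in shares near those of all genes. Of 34 tested, 7 were higher and 6 lower at 6 h (median 0.01), beside 20.5% and 21.5% of all genes. At 24 h 4 were higher and 1 lower (median 0.04), beside 8.64% and 2.39% of all genes. Without replicate 3 there were 3 and 1, beside 3.65% and 1.03%. The interval lay inside 1.5-fold for 27 of the 34, beside 60.6% of all genes. Against untreated 24 h cells 6 were higher and 0 lower, beside 8.81% and 4.44% of all genes. Hmox1, heme oxygenase 1, is its classic target. It stood at 88.7, 87.6 and 90.9 FPKM at 0 h, at 223, 219 and 231 FPKM at 6 h and at 80.5, 80.0 and 77.7 FPKM at 24 h (−0.16, SE 0.07, adjusted p = 0.0981; −0.15 without replicate 3). All 3 treated values lay just below all untreated 0 h values, and untreated 24 h cells stood lower still, at 76.6, 67.0 and 73.0 FPKM. With scaled libraries the fall of Hmox1 passed (−0.28, adjusted p = 0.0452). Ephx1, an epoxide hydrolase that the p53 list holds too, was higher by 0.44 (9.40, 9.54 and 10.0 against 13.4, 13.5 and 13.5 FPKM; 0.46 without replicate 3). Nfe2l2, which encodes NRF2 itself, was at 28.3, 30.3 and 29.0 against 23.9, 24.1 and 20.2 FPKM (0.35; 0.27 without replicate 3), and untreated cells had risen over the day as well (0.27, adjusted p = 0.0347). Nqo1, a quinone reductase, was higher by 0.22 and Me1, malic enzyme, by 0.54, and both calls were lost without replicate 3. The difference of Nqo1 was then 0.21 (adjusted p = 0.071) and that of Me1 0.30 (adjusted p = 0.102), and the call of Nqo1 was also lost with scaled libraries (0.285). Pir, an iron-binding nuclear protein, was lower by 0.31 (−0.29 without replicate 3). Among 29 other antioxidant genes, Glrx, glutaredoxin, was higher (0.38; 0.42 without replicate 3) and Gss, glutathione synthetase, lower (−0.20 both ways). Glrx had risen in untreated cells over the day as well (0.32, adjusted p = 0.0306), treated against untreated 24 h cells gave 0.06 and did not pass, and its call was lost with GC and length correction (adjusted p = 0.101). Txnip, the inhibitor of thioredoxin, came from a 6 h mean of 19.2 FPKM to 69.9, 68.9 and 70.0 FPKM, against 68.6, 63.4 and 48.0 FPKM (0.23, adjusted p = 0.138; 0.08 without replicate 3).

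Immediate early genes encode transcription factors and feedback regulators induced within minutes of a signal. Of 25 tested, 7 were higher and 0 lower (median 0.16), beside 8.64% higher and a median of 0.10 among all genes. Without replicate 3 there were 6 and 0, beside 3.65% higher. The 24 h counts stand against 14 higher and 3 lower at 6 h (median 0.36). Zfp36, which destabilises inflammatory mRNAs, stood at 1.36, 1.25 and 1.38 FPKM and then at 2.42, 2.82 and 2.27 FPKM (0.59, SE 0.09, adjusted p = 3.4e-04; 0.60 without replicate 3). Plaur, the urokinase receptor, stood at 3.65, 3.97 and 4.39 against 6.98, 6.21 and 5.49 FPKM (0.53; 0.58 without replicate 3), and Ier5 at 0.654, 0.668 and 1.06 against 1.54, 1.77 and 1.47 FPKM (0.54; 0.64 without replicate 3). In all of these the treated libraries lay above every untreated one. Fos gave 0.25 (adjusted p = 0.162) and Atf3 0.21 (adjusted p = 0.141), against 1.53 and 1.13 at 6 h (0.11 and 0.17 at 24 h without replicate 3).

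Lysosomal genes of the TFEB network were higher at 6 h and, in fewer members, at 24 h. Of 45 tested, 36 were higher and 3 lower at 6 h (median 0.72), and 13 were higher and 0 lower at 24 h (median 0.24). Among all genes 20.5% were higher at 6 h and 8.64% at 24 h, or 3.65% at 24 h without replicate 3. Without replicate 3 there were 7 higher and 0 lower (median 0.12), and with scaled libraries 8 and 0 (median 0.12). Between 6 h and 24 h, 30 fell. Untreated cells had a median of 0.12 over the day with 1 higher, and treated against untreated 24 h cells gave 10 higher and 1 lower (median 0.12). Psap, the precursor of the saposins that help degrade sphingolipids, stood at 75.2, 75.6 and 52.7 FPKM and then at 103, 101 and 98.5 FPKM (0.59, SE 0.11, adjusted p = 0.00161; 0.42 without replicate 3). Its 6 h libraries were at 94.9, 97.4 and 94.7 FPKM, and 24 h against 6 h gave 0.08 (adjusted p = 0.601). Rragd, a GTPase that recruits mTORC1, and Asah1, acid ceramidase, were higher by 0.56 and 0.42, and both calls were lost without replicate 3 (0.32 and 0.23, adjusted p = 0.257 and 0.12).

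The promoters of Psap and Plaur are shown because both genes were raised at 6 h and 24 h and hold a match to a stress-related motif near the start. Promoters of 300 bases in RefSeq (GRCm38.p6) were found for 99 of the 130 genes chosen for naming. Searched on both strands, the antioxidant response element core TGACNNNGC occurred in 12.4% of all 32851 promoters and the AP-1 motif TGANTCA in 7.81%, and the 2 can overlap. In Psap (chr10:60277378-60277677, plus strand) the capitals mark an antioxidant response element core on the minus strand, which also holds an AP-1 match. In Plaur (chr7:24462233-24462532, plus strand) they mark an AP-1 match. Genes that were lower at 24 h hold matches too, such as Pir with both motifs and Prxl2b with the antioxidant response element core. Whether matches were more frequent in raised genes was not tested. A match describes letters, not a bound site.
Psap: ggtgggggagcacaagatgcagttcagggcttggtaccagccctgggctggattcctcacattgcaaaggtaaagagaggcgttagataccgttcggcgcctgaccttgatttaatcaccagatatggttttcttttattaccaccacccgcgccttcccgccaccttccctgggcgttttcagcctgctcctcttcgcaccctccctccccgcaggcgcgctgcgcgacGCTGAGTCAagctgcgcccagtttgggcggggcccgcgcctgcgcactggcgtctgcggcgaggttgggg
Plaur: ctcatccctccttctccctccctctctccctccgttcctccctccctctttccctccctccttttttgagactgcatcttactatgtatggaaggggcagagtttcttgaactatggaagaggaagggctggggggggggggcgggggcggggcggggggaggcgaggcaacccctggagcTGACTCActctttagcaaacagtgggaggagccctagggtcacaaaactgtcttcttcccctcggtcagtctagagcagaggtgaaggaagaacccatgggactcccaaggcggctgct

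Genes of the extracellular matrix, of epithelia and of early lineages differed in some members. Of 26 matrix and integrin genes 9 were higher and 1 lower (median 0.33), beside 8.64% higher and 2.39% lower among all genes, and 2 higher and 6 lower at 6 h. Without replicate 3 there were 4 and 1, beside 3.65% and 1.03%. The integrin genes Itgav and Itgb1 were higher by 0.76 and 0.61, calls lost without replicate 3 (0.42 and 0.31, adjusted p = 0.263 and 0.352). Of 9 primitive endoderm genes 4 were higher and 0 lower (2 and 0 without replicate 3). Dab2, an endocytic adaptor, stood at 0.924, 0.913 and 0.51 against 1.62, 1.41 and 1.40 FPKM, after a 6 h mean of 0.358 FPKM (0.48; 0.37 without replicate 3). Dab2 passed the filter through the treated group alone. Sparc, a matrix glycoprotein, was at 106, 106 and 102 against 84.2, 78.3 and 92.1 FPKM (0.30; 0.36 without replicate 3), a call lost with scaled libraries (adjusted p = 0.165). Of 6 trophectoderm genes, Krt18 and its partner Krt8 were higher. Krt8 stood at 12.2, 13.3 and 16.7 against 23.1, 21.5 and 19.7 FPKM (0.58; 0.70 without replicate 3; 0.47 and adjusted p = 0.0594 with scaled libraries). Among formative and primed genes 2 of 12 were higher, Sall2 and Cdh2 (the latter under 1 FPKM in all untreated libraries), and 0 without replicate 3. Of 4 primitive streak and 5 neuroectoderm genes limma called 0 with all libraries. Their intervals lay inside 1.5-fold for 4 and 5, beside 60.6% of all genes. Without replicate 3 it called 0 and 1.

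Imprinted genes, expressed from 1 parental copy, had 4 of 22 higher and 0 lower both with and without replicate 3. Among all genes 8.64% were higher and 2.39% lower, or 3.65% and 1.03% without replicate 3. Beside Peg10, H19, a noncoding RNA, stood at 1.42, 0.714 and 1.18 against 3.32, 3.08 and 3.24 FPKM (1.02, SE 0.17, adjusted p = 7.08e-04; 1.05 without replicate 3). Igf2, the growth factor that neighbours H19 on chromosome 7, stood at 1.39, 1.21 and 1.22 against 2.18, 1.85 and 1.87 FPKM (0.38; 0.36 without replicate 3; adjusted p = 0.0586 without treated replicate 1). Both treated groups lay above all 3 untreated libraries. Untreated cells over the day gave 0.55 for H19 and 0.23 for Igf2 (adjusted p = 0.196 and 0.386). Grb10 was higher by 0.61 with all libraries (0.33 and adjusted p = 0.22 without untreated replicate 3, and adjusted p of 0.0698 to 0.0916 without 1 treated library). Among 18 Nodal, BMP and Id genes 5 were higher and 3 lower, with 3 and 1 without replicate 3 and 1 and 3 with scaled libraries. Lefty2, an inhibitor of Nodal, stood at 7.51, 7.70 and 8.01 FPKM at 0 h, at a mean of 1.98 FPKM at 6 h and at 11.5, 9.78 and 11.5 FPKM at 24 h (0.45; 0.47 without replicate 3; adjusted p = 0.053 with scaled libraries). Untreated cells had gone further over the same day (1.32, adjusted p = 3.08e-07), so treated 24 h cells lay 0.87 below them.

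Cell cycle genes lay near the start. Of 34 G2/M genes 2 were higher and 20 lower at 6 h (median −0.46), and 1 was higher and 0 lower at 24 h, with 0 without replicate 3 (median 0.13, or 0.00). Ccnb1, cyclin B1, stood at 96.8, 96.3 and 94.2 FPKM against 96.8, 96.3 and 75.9 FPKM, so the treated values lay beside untreated replicates 1 and 2 (0.10, 95% interval −0.06 to 0.27; −0.01 without replicate 3). Of 37 replication and G1/S genes 3 were higher and 0 lower, beside 8.64% and 2.39% of all genes. Without replicate 3 there were 0 and 1, and with scaled libraries 3 and 3. Pcna, the sliding clamp of replication, gave −0.03 with an interval of −0.13 to 0.08 (−0.07 without replicate 3). Of 64 replication-dependent histone genes listed, 12 were tested and 3 were lower, of which H3c10 held without replicate 3 (1.96, 1.62 and 3.46 against 0.837, 0.64 and 0.625 FPKM; −0.94, and −0.72 without it). H3c10 passed the filter through the untreated group alone. Histone mRNAs of this class lack poly(A) tails, and poly(A) selection was used.

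Some list medians moved when the third untreated library was left out. The 83 ribosomal protein genes had a median of −0.41 with 0 higher and 3 lower, and −0.10 with 1 lower without replicate 3. With all libraries, all 83 differences were negative. For 59 every treated library lay below every untreated 0 h library, beside 11.5% of all genes. For 58 they lay below all 6 untreated libraries of both times, beside 9.23%. Rpl7l1, a ribosome biogenesis factor, was the member called both ways (99.4, 100.0 and 110.0 against 77.1, 76.5 and 81.0 FPKM; −0.39, and −0.35 without it). The 47 nuclear respiratory chain genes had a median of −0.34 with 1 lower, and −0.07 with 0. The 39 histone and DNA methylation enzymes had a median of 0.32 with 0 called, and 0.03 with 0. Against untreated 24 h cells, which do not include that library, the medians were −0.42 with 8 lower for the ribosomal protein, −0.33 with 9 lower for the respiratory chain and 0.34 with 0 called for the methylation enzyme genes. Untreated 24 h libraries had ribosomal protein shifts of 0.39, 0.14 and 0.44, between those of untreated replicates 1 and 2 and the 0.90 of replicate 3. The 13 mitochondrial mRNAs had a median of −0.25, and 0.06 without replicate 3. Of 18 mitochondrial tRNAs 4 were higher and 1 lower, beside 8.64% and 2.39% of all genes, with 4 and 0 without replicate 3. Among them mt-Tq, under 5 FPKM in every one of the 6 libraries, went from 1.07, 0 and 1.61 to 4.50, 3.93 and 3.97 FPKM (1.55, adjusted p = 0.00767; 1.83 without replicate 3), and mt-Tp went from 23.5, 25.9 and 38.9 to 55.8, 49.0 and 56.7 FPKM (0.88; 1.09 without replicate 3), after a 6 h mean of 127 FPKM. These genes are short and adjoin mitochondrial mRNAs, so their fragments may be shared, and the strand setting of the counting is not given in the sources used here.

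Calls in the remaining lists are read beside 8.64% higher and 2.39% lower among all genes. Without replicate 3 these shares were 3.65% and 1.03%. Stress chaperones of the cytosol had 1 of 19 higher and those of the endoplasmic reticulum 2 of 23 (Pdia3 and Dnajb9), the same counts as without replicate 3. Targets of ATF4, the amino acid stress factor, had 2 of 31 higher and 4 lower (1 and 0 without replicate 3). Of 32 sterol and fatty acid genes 3 were higher, of which Fads2, a fatty acid desaturase, held without replicate 3 (0.45 and 0.31). Glycolysis and hypoxia genes had 3 of 33 higher and 1 lower (2 and 1 without replicate 3). The lower one was Ldha, lactate dehydrogenase A, at 229, 230 and 238 against 268, 274 and 283 FPKM (−0.24; −0.22 without replicate 3). In untreated cells 10 of these 33 genes rose over the day (median 0.27) and Ldha by 0.49 (adjusted p = 7.61e-05), so treated 24 h cells lay 0.73 below untreated 24 h cells in Ldha. Snhg1, a host of small nucleolar RNAs, was at 31.3, 31.8 and 36.1 against 42.2, 45.9 and 50.3 FPKM (−0.47; −0.41 without replicate 3), and untreated cells fell alike over the day (−0.50, adjusted p = 0.0063).

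**Figure D4:**
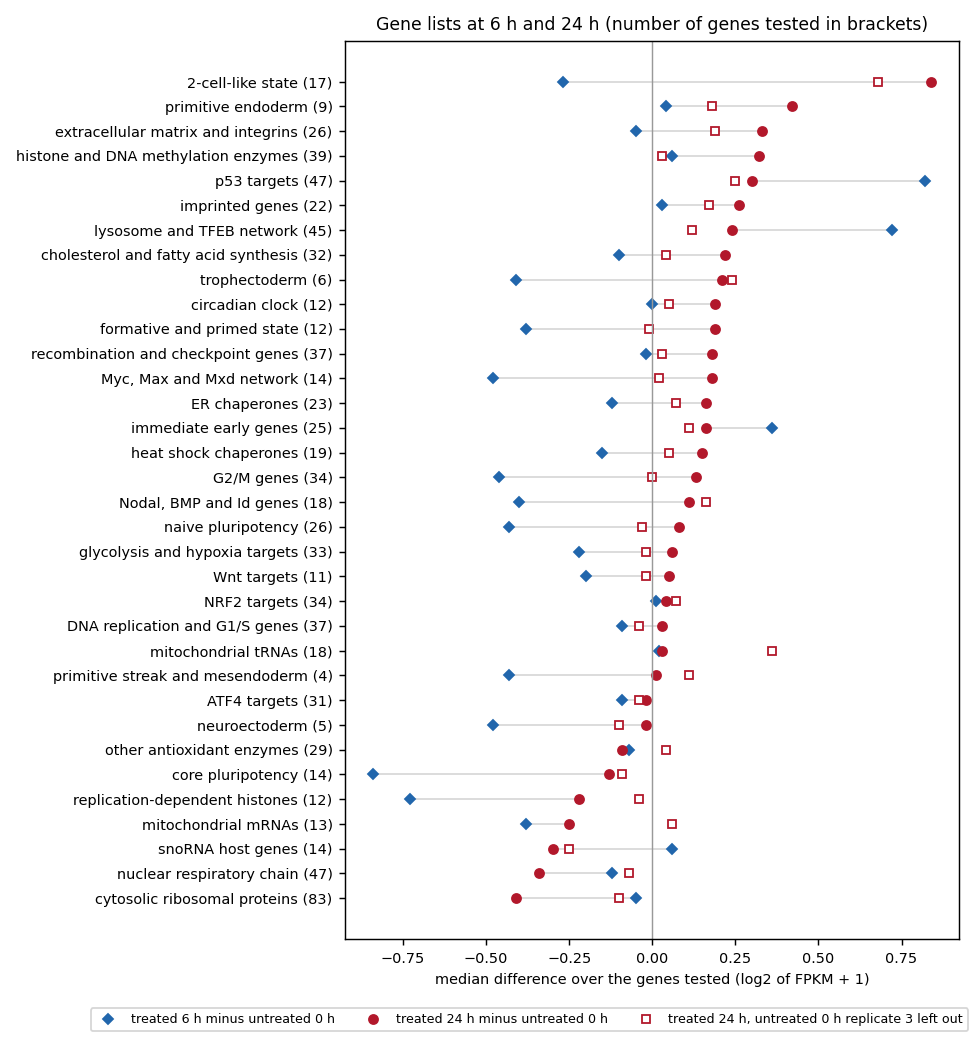
Median difference from untreated 0 h over the tested genes of each list (x axis, log2 of FPKM + 1; number of genes in brackets) at treated 6 h (blue diamonds) and treated 24 h with all untreated libraries (red circles) or without replicate 3 (open squares). Core pluripotency moves from −0.84 to −0.13 and p53 targets from 0.82 to 0.30, and ribosomal proteins shift from −0.41 to −0.10 when replicate 3 is left out.

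Set beside the comparison, untreated cells alone differed little between 0 h and 24 h: 83 genes changed (0.674%), 46 higher (0.374%) and 37 lower (0.3%), with 1156 at an unadjusted p under 0.05. That count was 206 without untreated 0 h replicate 3, 46, 44 and 34 without untreated 24 h replicate 1, 2 or 3, and 4089 with 4 libraries that stood apart left out. Treated 24 h against untreated 24 h cells gave 1632 changed genes (13.3%), 1085 higher (8.81%) and 547 lower (4.44%). It fell to 893 and 838 without untreated 24 h replicate 1 or 3 and to 979, 908 and 959 without treated replicate 1, 2 or 3. Against the mean of both untreated groups 2474 genes changed (20.1%), 1728 higher (14%) and 746 lower (6.06%), with 1855 without untreated 0 h replicate 3. Leaving out untreated 0 h replicate 1 or 2 gave 4227 or 3990, and leaving out treated replicate 1, 2 or 3 gave 1153, 1076 or 1143. For 28.8% of genes all 3 treated libraries lay outside the range of all 6 untreated ones (19.5% above and 9.23% below). Peg10, S100a6, Krt18, Perp and Tuba3a did so, as did other genes named above. Some of these, such as Rtl10, Rbm42 and Rpl17, had lost their call without untreated 0 h replicate 3. These comparisons share libraries with the main one and are no separate support for it.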

How the data were processed

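Poly(A) RNA of E14Tg2a mouse embryonic stem cells was sequenced in 27 libraries, 3 for each of 9 groups. The authors deposited FPKM values per gene. Per the submitters' processing notes, the tools were HISAT2 and StringTie with cutadapt, edgeR and FastQC, on mm10. Settings, strand included, were not stated there. Libraries were grouped by their labels.

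Values were transformed to log2(FPKM + 1), and genes with at least 1 FPKM in 3 or more of the 6 compared libraries were kept. Contrasts of group means were fitted to all 27 libraries with limma 3.58.1 (R 4.3.3, mean-variance trend). Adjusted p-values are Benjamini-Hochberg within a contrast. Because these values are not counts, no count test was run. On simulated data of 12315 genes for treated 24 h against untreated 0 h, 47% of log2 changes of 0.5 and 84% of those of 1 were recovered, with 8 false among 139 calls. The simulated noise was independent between genes, and no simulated library stood apart as untreated 0 h replicate 3 did. These rates therefore check the fit and cannot be carried over to the calls reported here.

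Alternatives varied the pseudocount, filter, scaling, weights, GC correction, replicate block and libraries used. The members and lists were chosen with earlier results of these data known. Named genes are the 10 largest rises and 10 largest falls among changed genes with groups that did not overlap, at least 5 FPKM on average in whichever group was higher and a usual symbol, up to 4 changed members of each list (or its 2 most highly expressed), and a fixed panel. Zscan4f, Tmem92, Zfp352, the printed promoters and the 5-library fit were chosen after values were seen. Histone symbols in the list were revised to match the annotation once the files were read. Some genes the rule names are not reported here.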

Additional observations from a re-analysis of the deposited data

How the results depend on the processing

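For treated 24 h against untreated 0 h, the 1358 changed genes became 690 with a filter of 5 FPKM, 0 with the spread taken from the 6 compared libraries alone, 5130 with library weights, 2232 with GC and length correction and 29 when a 2-fold change was required as well. Leaving out 1 library gave 576 to 3036. The replicate block gave 1629, or 2453 together with GC and length correction. The correlations of deviations of same-numbered libraries were −0.048, 0.185 and 0.06, so pairing by number was not shown; whether a number marks a shared time course is not stated in the labels. The block ended no call of a named gene. Intervals inside 1.5-fold (7461 genes) became 25324 with no filter, 4406 with a filter of 5 FPKM and 11453 with library weights. Limits of 2-fold and 1.2-fold gave 11201 and 1820. Against both untreated groups, the 2474 changed genes became 1386 with a filter of 5 FPKM, 247 with the 9 compared libraries alone and 6998 with library weights, and 1076 to 4227 without 1 library. Leaving out 4 libraries that stood apart gave 5053 there, 7783 for 24 h against 6 h (4893), 4089 for the untreated groups (83) and 6716 for treated against untreated 24 h (1632). Leaving out 1 library gave 34 to 206 for the untreated groups and 838 to 1643 for treated against untreated 24 h. Of 130 named genes, 14 took both signs over these settings, 0 of them changed with all libraries. Of the 14, 3 passed the test with the other sign: Esrrb (−0.18 with library weights, −0.15 with 5 libraries only), Klf4 (−0.12 and −0.16) and Zfp42 (−0.08 with library weights). Of 101 named genes called with all libraries, 50 lost their call without untreated 0 h replicate 3, 43, 39 and 36 without treated 24 h replicate 1, 2 or 3, 12 with scaled libraries, 8 with GC and length correction and all 101 with the 6 compared libraries alone. Estimation of the library weights stopped before it converged. The causes of these shifts were not tested. With 3 libraries a group, the median standard error was 0.129 on the log2 scale, and absolute depth is unknown.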
